A study of Mus musculus with 6 samples.

Results

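The haem synthesis enzymes are the proteins that build haem from glycine and succinyl-CoA. Here they are described by the transcripts of 8 genes: Alas1, Alas2, Alad, Uros, Urod, Cpox, Ppox and Fech. The genes were selected by exact symbol from the 38926 gene symbols of the deposited table, and all 8 were found. The list was drawn up because levels of haem synthesis genes had been seen to differ between the KO and WT libraries of this same table. Every fold change, p-value and count over the 8 genes below is therefore a description of that contrast and no independent evidence of it.

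RNA came from LSK cells (lineage-negative, Sca1-positive, cKit-positive), the marrow fraction that holds blood stem cells and early multipotent progenitors. They were isolated by flow sorting from the leg bones (femur and tibia) of untreated C57BL/6 mice aged 8 to 12 weeks. There were 3 libraries labelled KO, from double knockout mice for the dopamine receptor genes Drd2 and Drd3, and 3 labelled WT, from wild-type mice. The labels do not say whether replicates came from separate animals or pools, so the spread behind each p-value is that between libraries and may be technical. Values are FPKM, fragments per kilobase of gene scaled to sequencing depth by the authors.

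Libraries held 5192678 to 7069649 recovered reads. Drd2 was listed at 0 in all 6 libraries and so checked nothing. Drd3 measured 1.62, 3.08 and 3.04 FPKM in KO 1, 2 and 3 and was listed at 0 in all 3 libraries labelled WT. This is the reverse of a lost transcript, and a value per gene does not show which part of the gene was read. The labels could therefore not be checked from the targeted genes. The groups are called by their labels throughout, and every direction below rests on them. Libraries labelled KO also differed among themselves more than those labelled WT did. Pearson's r across genes was 0.963 to 0.970 between libraries labelled KO and 0.983 to 0.985 between those labelled WT. KO 1 and KO 3 held 3182 and 1173 FPKM of the immunoglobulin light chain gene Igkc, KO 2 held 4.93 and the libraries labelled WT 1.98 to 2.48. The Y-linked gene Ddx3y was at 0 in KO 1 and KO 3 and at 15.1 FPKM in KO 2, against 12.5 to 13.9 FPKM in the libraries labelled WT. Xist, transcribed from the silenced X chromosome of females, reached 1.96 and 2.01 FPKM in KO 1 and KO 3 and was at 0 in KO 2 and in all 3 labelled WT. On these sex-linked genes KO 1 and KO 3 stood apart from the other 4 libraries. No library labelled WT shared their pattern, so it is partly confounded with the labels. The main results are therefore also given with KO 2 as the only library labelled KO.

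Haem synthesis starts and ends inside the mitochondrion. Aminolevulinic acid synthase joins glycine and succinyl-CoA, and this step usually sets the rate of the whole pathway. The synthase has a housekeeping form, ALAS1, found in all tissues and restrained by haem itself, and an erythroid form, ALAS2, encoded on the X chromosome. The following enzymes work in the cytosol, joining aminolevulinic acid molecules into a pyrrole, forming a ring and trimming its side chains. Late steps return to the mitochondrion, where ferrochelatase inserts iron. In the red cell lineage the factors GATA1 and KLF1 are known to raise many of these genes, and ALAS2 mRNA is held back from translation when iron is scarce.

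Known or possible regulatory stretches of the synthases are printed next as a description. Their part in the contrast between the libraries was not tested. The 5′ UTR of Alas2 carries an iron-responsive element, a hairpin that iron regulatory proteins bind. It lies in exon 1 of the annotated transcript at chrX:150547459-150547485 (GRCm38, plus strand) in GENCODE M21, where capitals mark the loop:

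Alas2 iron-responsive element: tggttcgtcctCAGTGCagggcaacag

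The loop rule used for the search, a C and 5 further bases ahead of CAGTGN on the sense strand, was met in the first 100 bases of 3.76% of 58797 protein-coding transcripts. Among the other haem synthesis genes, 2 had a transcript that met it. A match of these letters is no test of a hairpin.

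Stretches upstream of the start are shown for the synthases and for Alad and Cpox, which both rose in the libraries labelled KO, to set the synthases side by side with enzymes further down the pathway. RefSeq windows (GRCm38.p6) of 7 of the 8 genes were used, some with more than 1 start site, and those of the remaining gene were not used here. Each window of 250 bases was searched on both strands for GATA sites (GATA with an A or T before it and an A or G after it), for CCNCNCCC, which covers the CACCC boxes of KLF factors but also GC boxes, and for GCGCATGC, part of the NRF-1 site. Only bases outside annotated exons are printed, except for the Alas1 site of 30 bases, which lies in an exon of another Alas1 transcript. Capitals mark matches. Positions are chr9:106247909-106247938 (minus strand) for Alas1, chrX:150547167-150547374 (plus) for Alas2, chr4:62520064-62520159 (minus) for Alad and chr16:58669958-58670207 (plus) for Cpox.

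Alas1: ggCCGCACCCaagGCGCATGCGCggcggtc
Alas2: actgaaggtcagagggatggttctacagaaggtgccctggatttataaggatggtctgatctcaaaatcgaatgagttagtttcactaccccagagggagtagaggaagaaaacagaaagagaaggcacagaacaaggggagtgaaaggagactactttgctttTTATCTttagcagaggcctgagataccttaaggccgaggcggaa
Alad: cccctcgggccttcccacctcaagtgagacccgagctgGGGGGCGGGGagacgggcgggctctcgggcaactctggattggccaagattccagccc
Cpox: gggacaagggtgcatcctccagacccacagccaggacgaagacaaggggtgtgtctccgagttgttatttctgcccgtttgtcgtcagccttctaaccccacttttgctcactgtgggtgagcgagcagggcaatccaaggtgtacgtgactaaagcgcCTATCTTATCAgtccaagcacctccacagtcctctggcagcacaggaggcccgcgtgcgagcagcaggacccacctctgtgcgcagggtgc

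The Alas1 stretch holds the NRF-1 letters as a palindrome, read once on each strand, next to a CCNCNCCC match. Alas2 has 1 GATA match, and its full window has 4 overlapping CCNCNCCC matches in bases not printed. Cpox has 2 GATA matches that overlap each other. Alad has no GATA match in its window and 4 CCNCNCCC matches, of which 2 overlapping ones are in the stretch shown. GATA sites were in 26.5% of 32851 mouse windows of this length and in 3 of the 10 member windows, from 3 of the 7 members. CCNCNCCC was in 45.9% of all windows and in 6 of the 10 member windows, from 4 of the 7 members. GCGCATGC was in 2.26% of all windows and in 1 of the 10 member windows, from Alas1. A match is a description of these letters, and a missing match says nothing of a factor's binding.

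In the libraries labelled KO, 3 of the 8 enzymes rose, namely Alad, Cpox and Fech, which act early, late and last in the pathway. None fell, and 5 did not pass the test. A gene was called when limma's adjusted p was under 0.05 on log2(FPKM + 1), among 11371 genes averaging 1 FPKM or more, and all 8 enzymes were among those. Of all genes tested, 10.9% were called, 5.48% higher and 5.43% lower. Nothing is read from the enzymes' count against these shares, since the contrast chose them. The median log2 fold change was 0.57 over the 8 enzymes and -0.002 over all genes tested. The estimate was above 0 for 6 of the 8 enzymes and for 49.7% of all genes. Values of the groups did not overlap, with those labelled KO higher, for 5 of the 8 enzymes and for 16.2% of all genes tested. Groups were apart the other way, with those labelled KO lower, for none of the 8 and for 16.6% of all genes. Since bulk RNA was measured, more cells of a type and more RNA per cell cannot be told apart.

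**Figure D1:**
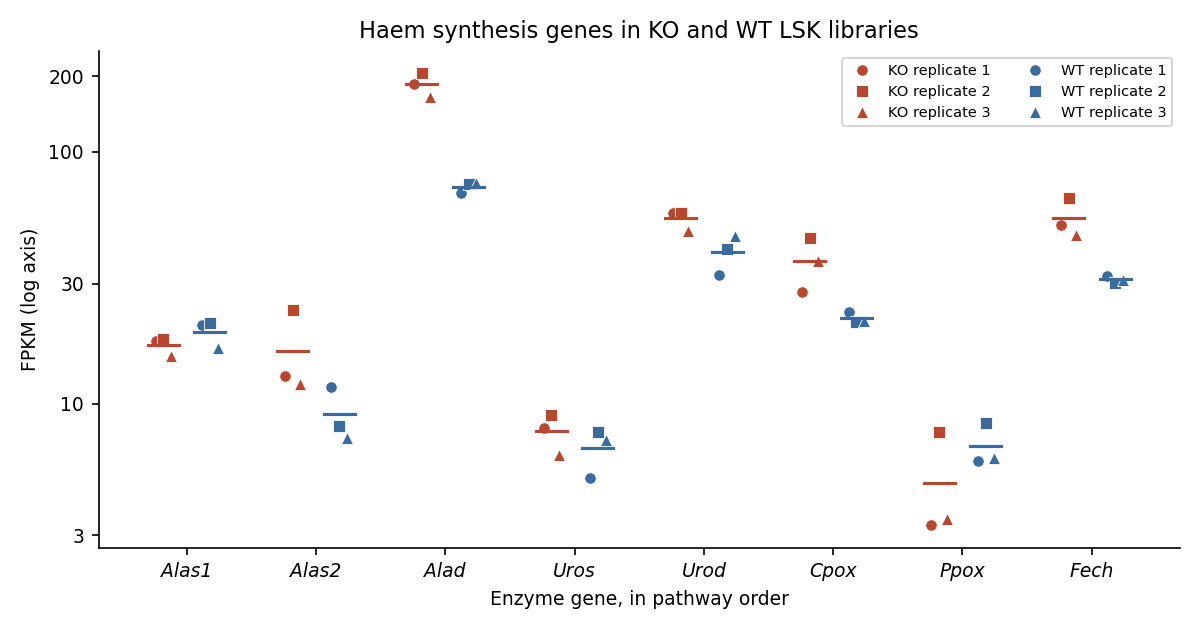
FPKM on a log axis of each haem synthesis gene in the 3 libraries labelled KO (red, left) and the 3 labelled WT (blue, right), with marker shapes for replicates and lines at group means. Alad has the highest values in both groups, and all 3 red Alad points (166 to 205 FPKM) lie above all 3 blue ones (68.5 to 75.2 FPKM), while Alas1, Uros and Ppox overlap.

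Alas1, the housekeeping synthase, lies on chromosome 9 at 106233455 to 106248654 (minus strand; GRCm38, as are all gene positions here). It had 17.8, 18.1 and 15.4 FPKM in the libraries labelled KO 1, 2 and 3, against 20.5, 20.8 and 16.6 FPKM in those labelled WT 1, 2 and 3. The ranges overlap, with the lowest library of each group being replicate 3. Means were 17.1 ± 1.47 FPKM in the libraries labelled KO and 19.3 ± 2.33 FPKM in those labelled WT (SD, n = 3 each). The log2 fold change was -0.17 ± 0.13 (SE), with a 95% interval from -0.46 to 0.12 and a limma adjusted p of 0.442. The interval leaves room for no difference and for a modest fall or a small rise.

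Alas2, the erythroid synthase, lies on chromosome X at 150547375 to 150570638 (plus strand). It had 12.9, 23.5 and 12.0 FPKM in the libraries labelled KO, against 11.7, 8.16 and 7.33 FPKM in those labelled WT. The groups do not overlap, but the lowest library labelled KO and the highest labelled WT are close, and KO 2 alone is far above the rest. Means were 16.1 ± 6.43 FPKM in the libraries labelled KO and 9.05 ± 2.30 FPKM in those labelled WT (SD, n = 3 each). The log2 fold change of 0.73 ± 0.25 (SE; 95% interval 0.17 to 1.30) did not pass the limma test, with an adjusted p of 0.096. Alas2 passed in 1 of 15 alternative settings, the one that set KO 2 alone against WT, with a log2 fold change of 1.31 and a limma adjusted p of 0.0335. Of its exon bases, 311 (12.9%) are shared with the opposite-strand DNA repair gene Apex2, and the library kits do not mark strand. Apex2 itself had 1.68, 1.21 and 2.02 FPKM in the libraries labelled KO, against 1.54, 1.68 and 2.36 FPKM in those labelled WT.

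The balance between the synthases was read within each library, since FPKM values are per length. Its size depends on the lengths used. The values implied 4310 bases for Alas1, against 6174 annotated exon bases, and 2403 bases, as annotated, for Alas2. Another length for Alas1 would scale the ratio of every library alike and would not change their order. Alas2 stood at 0.727, 1.30 and 0.777 times Alas1 in the libraries labelled KO, against 0.569, 0.392 and 0.440 times in those labelled WT. At the implied lengths, KO 2 was the only library with more Alas2 than Alas1, and this depends on those lengths. As a share of the summed synthase FPKM, Alas2 made up 42.1, 56.6 and 43.7% in the libraries labelled KO and 36.2, 28.2 and 30.6% in those labelled WT. The shares do not overlap, with means of 47.5 ± 7.94% for the libraries labelled KO and 31.7 ± 4.15% for those labelled WT (SD, n = 3 each). The summed synthase level was 33.2 ± 7.45 FPKM in the libraries labelled KO and 28.4 ± 4.14 FPKM in those labelled WT (SD, n = 3 each), and these ranges overlap. On the log2(FPKM + 1) scale the ratio of Alas2 to Alas1 was 0.90 higher in the libraries labelled KO, given with no test because the pair was chosen for this contrast. That difference was 0.65 to 1.05 when any single library was left out and 1.40 with KO 2 alone.

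**Figure D2:**
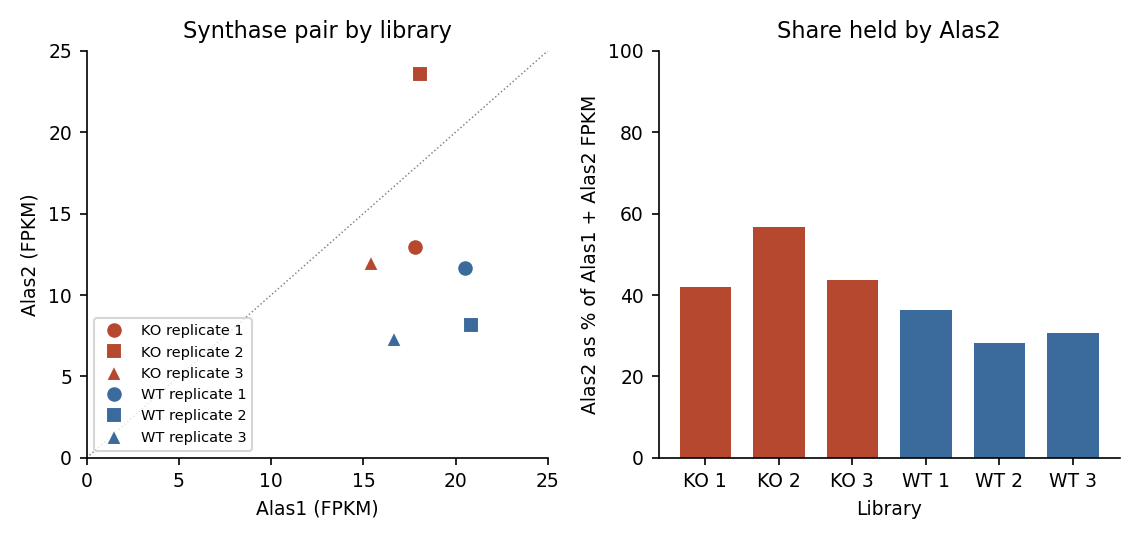
Left, Alas2 FPKM against Alas1 FPKM in each library, with the dotted line at equal levels and red for libraries labelled KO, blue for those labelled WT. Right, the share of the summed synthase FPKM held by Alas2 in each library: 42.1 to 56.6% in the 3 labelled KO and 28.2 to 36.2% in the 3 labelled WT.

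By a rule of likeness, the genes whose log2(FPKM + 1) profile over the 6 libraries, centred on its mean, lay closest to that of each synthase were listed. For Alas1 these were Arhgap25, Morn2, Arl5b, Zfp709 and Med12l, with root mean square distances of 0.0377 to 0.0526. For Alas2 they were Batf2, Abcb6, Egr2, Pnp2 and Gstt1, at larger distances of 0.117 to 0.169. Abcb6, the second closest to Alas2, encodes a porphyrin transporter. It had 4.25, 8.11 and 3.68 FPKM in the libraries labelled KO, against 3.44, 2.86 and 2.83 FPKM in those labelled WT. Its log2 fold change of 0.59 did not pass, with a limma adjusted p of 0.161. Likeness over 6 libraries does not show shared regulation, which was not tested.

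Alad, which joins aminolevulinic acid molecules into porphobilinogen, was both the most abundant of the 8 transcripts and the one with the greatest fold change among them. It lies on chromosome 4 at 62509169 to 62519918 (minus strand). Alad had 187, 205 and 166 FPKM in the libraries labelled KO, against 68.5, 74.3 and 75.2 FPKM in those labelled WT. The groups are far apart, with a gap between them wider than the range of either group. Means were 186 ± 19.6 FPKM in the libraries labelled KO and 72.7 ± 3.65 FPKM in those labelled WT (SD, n = 3 each), a ratio of 2.56. The log2 fold change was 1.34 ± 0.10 (SE; 95% interval 1.11 to 1.57), with a limma adjusted p of 0.000204, and Alad was called in all 15 alternative settings. Set against the synthases, Alad stood at 5.70 ± 0.661 times the summed synthase FPKM in the libraries labelled KO and 2.61 ± 0.506 times in those labelled WT (SD, n = 3 each).

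Uros, which closes the ring as uroporphyrinogen III, lies on chromosome 7 at 133686243 to 133710072 (minus strand). It had 8.02, 8.98 and 6.24 FPKM in the libraries labelled KO, against 5.06, 7.73 and 7.16 FPKM in those labelled WT. The ranges overlap. Uros had a log2 fold change of 0.20 ± 0.19 (SE; 95% interval -0.23 to 0.62), with a limma adjusted p of 0.538.

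Urod, which removes carboxyl groups from the ring's side chains, lies on chromosome 4 at 116989965 to 116994413 (minus strand). It had 57.3, 57.4 and 48.5 FPKM in the libraries labelled KO, against 32.3, 41.2 and 46.4 FPKM in those labelled WT. The groups are apart by a narrow gap between KO 3 and WT 3. Means were 54.4 ± 5.10 FPKM in the libraries labelled KO and 40.0 ± 7.11 FPKM in those labelled WT (SD, n = 3 each). Its log2 fold change of 0.45 ± 0.14 (SE; 95% interval 0.13 to 0.76) did not pass, with a limma adjusted p of 0.0749. It passed in 2 of 15 alternative settings, with limma adjusted p-values of 0.0454 by voom on recovered reads and 0.0464 without KO replicate 3.

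Cpox, coproporphyrinogen oxidase, starts the late steps at the mitochondrion and lies on chromosome 16 at 58670292 to 58717636 (plus strand). It had 27.8, 45.4 and 37.0 FPKM in the libraries labelled KO, against 23.1, 21.1 and 21.3 FPKM in those labelled WT. All libraries labelled KO were higher, but they spread widely, with KO 1 close to the WT values. Means were 36.7 ± 8.79 FPKM in the libraries labelled KO and 21.8 ± 1.13 FPKM in those labelled WT (SD, n = 3 each), a ratio of 1.68. The log2 fold change was 0.70 ± 0.16 (SE; 95% interval 0.33 to 1.06), with a limma adjusted p of 0.0267. The call held in 9 of 15 alternative settings. The limma adjusted p was 0.0573 without KO replicate 2 and 0.0717, 0.108 and 0.0898 without WT replicates 1, 2 and 3. It was 0.0823 with no filter on low values and 0.0574 with no mean-variance trend.

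Ppox, protoporphyrinogen oxidase, makes the last porphyrin before iron is added and lies on chromosome 1 at 171275990 to 171281186 (minus strand). It was the enzyme whose estimate ran furthest against the others. Ppox had 3.28, 7.72 and 3.47 FPKM in the libraries labelled KO, against 5.89, 8.39 and 6.06 FPKM in those labelled WT. KO 1 and KO 3 are below all libraries labelled WT, and KO 2 is among them. Ppox had a log2 fold change of -0.48 ± 0.27 (SE; 95% interval -1.10 to 0.13), with a limma adjusted p of 0.289. Without KO replicate 2, Ppox was called lower, with a log2 fold change of -0.82 and a limma adjusted p of 0.0414. With KO 2 alone against WT the sign turned, to 0.18 with a limma adjusted p of 0.655. The gene shares 791 exon bases (17.5%) with the opposite-strand gene B4galt3, a galactosyltransferase, and without strand the reads of both cannot be told apart. B4galt3 had 6.46, 5.29 and 5.87 FPKM in the libraries labelled KO, against 5.95, 5.55 and 5.83 FPKM in those labelled WT.

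Fech, ferrochelatase, inserts iron to complete haem and lies on chromosome 18 at 64452914 to 64490251 (minus strand). It had 51.1, 65.4 and 46.9 FPKM in the libraries labelled KO, against 32.2, 30.1 and 31.1 FPKM in those labelled WT. The groups are well apart, and the libraries labelled WT hardly differ from each other. Means were 54.5 ± 9.70 FPKM in the libraries labelled KO and 31.1 ± 1.04 FPKM in those labelled WT (SD, n = 3 each), a ratio of 1.75. Fech had a log2 fold change of 0.77 ± 0.13 (SE; 95% interval 0.48 to 1.06), with a limma adjusted p of 0.00751, and Fech was called in all 15 alternative settings.

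**Figure D3:**
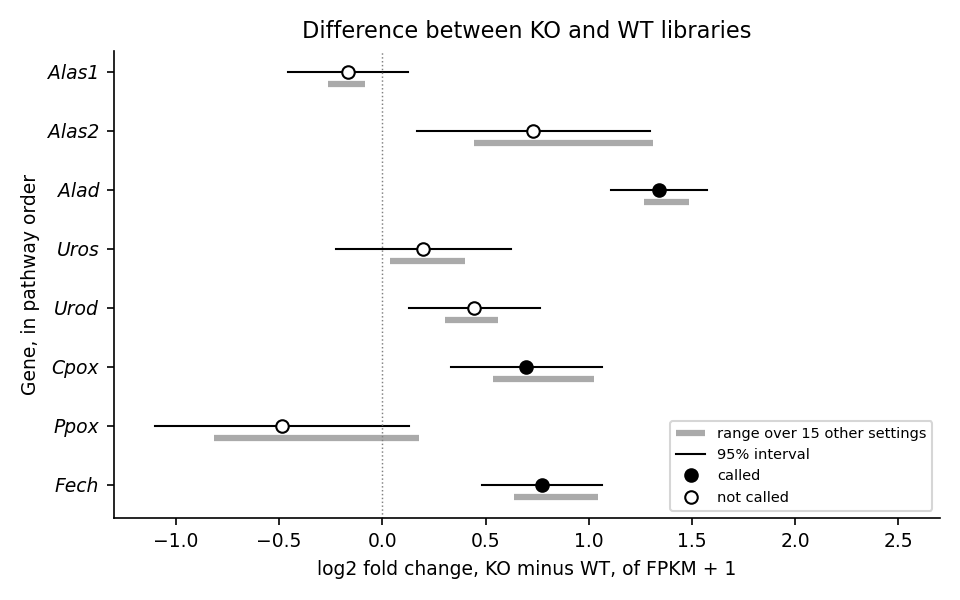
Log2 fold change of FPKM + 1, KO minus WT, of each haem synthesis gene in pathway order, with 95% limma intervals (black) and the range over 15 other settings (grey). Filled points for Alad, Cpox and Fech passed an adjusted p of 0.05, and the grey range of Ppox, -0.82 to 0.18, is the only one that crosses 0.

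By level, the enzymes of the libraries labelled KO ran from Alad through Fech, Urod, Cpox, Alas1, Alas2 and Uros to Ppox. Neighbours whose ranges overlap in those libraries are Fech and Urod, Alas1 and Alas2, and Uros and Ppox. In the libraries labelled WT the order was Alad, Urod, Fech, Cpox, Alas1, Alas2, Ppox and Uros. There the overlapping neighbours are Alas2 and Ppox, and Ppox and Uros. Alas1 and Alas2 thus overlap in range in the libraries labelled KO but not in those labelled WT. These orders and overlaps rest on the lengths implied by the values, which for Alas1, Cpox and Fech were shorter than the annotated exons.

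The 8 enzymes also shared their highest library among those labelled KO. KO 2 was the highest of the 3 libraries labelled KO for all 8, against 32.8% of all genes tested. For Urod it was almost level with KO 1, at 57.35 and 57.34 FPKM. KO 3 was the lowest for 6 of the 8, against 37.6% of all genes. The excess of KO 2 over the mean of KO 1 and KO 3 differed widely between enzymes. It was 2.29 times for Ppox, 1.89 for Alas2 and 1.40 for Cpox, 1.33 for Fech and 1.26 for Uros, and only 1.16, 1.09 and 1.08 for Alad, Alas1 and Urod. KO 2 is also the library with little Igkc and with Ddx3y, and the part of either difference in the enzymes' levels was not tested.

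**Figure D4:**
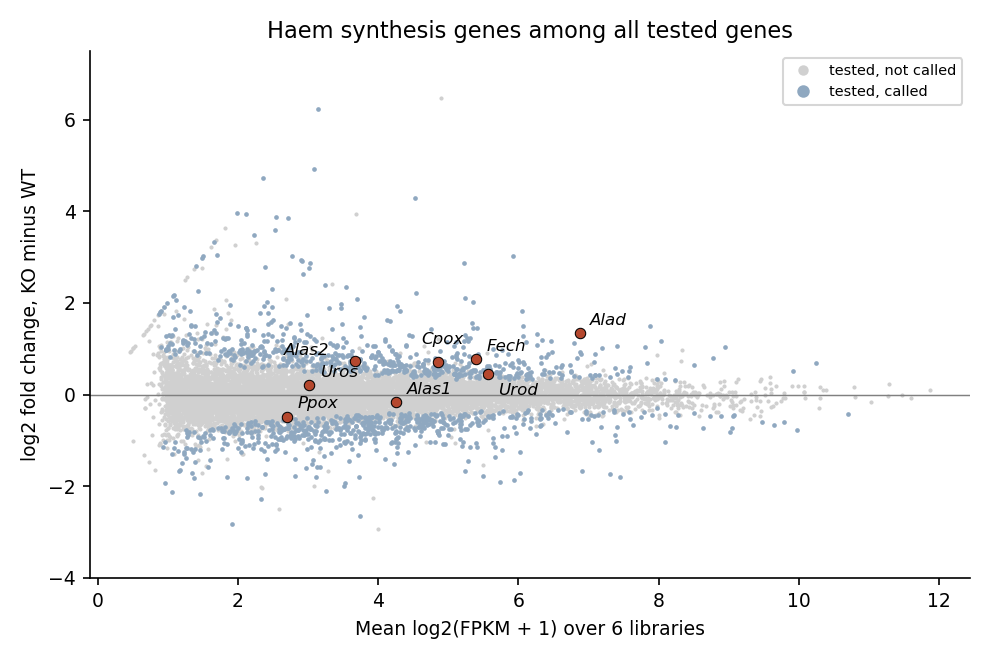
Log2 fold change, KO minus WT, against mean log2(FPKM + 1) for the 11371 genes tested, with the 8 haem synthesis enzymes as red circles. Blue points passed an adjusted p of 0.05, and Alad stands highest among the enzymes at 1.34, while Alas1 and Ppox lie below 0.

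The depth behind these values differed between enzymes. Ppox rested on 85 to 241 recovered reads in a library labelled KO and on 166 to 222 in one labelled WT. Alas2 rested on 156 to 391 reads in a library labelled KO and on 110 to 175 in one labelled WT. Alad, the deepest, rested on 1686 to 2655 reads in a library labelled KO and on 800 to 879 in one labelled WT. For Alas1, Cpox and Fech the gene length implied by the values was shorter than the annotated exons. Their recovered reads are the smallest whole numbers that fit the values, and the annotated length could not check them. Of the targeted genes, Drd2 lies 56.83 Mb from Alas1 and Drd3 lies 14.85 Mb from Cpox, and the part of these distances in the results was not tested. Exons of Alas1 and Cpox also share 465 bases (7.53%) and 204 bases (3.06%) with the opposite-strand genes 4930500F10Rik and Gpr15, whose means over all libraries were 0.0372 and 0.0238 FPKM.

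Partners of the enzymes were read by role. Of 9 genes for glycine and succinyl-CoA supply, 1 (11.1%) rose and none fell, against 5.48% higher and 5.43% lower among all genes tested. The share called is near the 10.9% of all genes called either way and is no result about the list, whose median log2 fold change was 0.04. The gene that rose was Slc25a38, the mitochondrial carrier known to bring in glycine for haem. It had 12.6, 13.6 and 10.5 FPKM in the libraries labelled KO, against 6.06, 8.38 and 4.66 FPKM in those labelled WT. The groups are apart, with a log2 fold change of 0.87 ± 0.19 (SE) and a limma adjusted p of 0.0234. The call was lost with no filter, without KO replicate 1 or 2, without WT replicate 1 or 3 and with KO 2 alone, at limma adjusted p-values up to 0.0835.

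Of 12 genes for mitochondrial iron and iron-sulphur clusters, 4 (33.3%) rose and 1 (8.33%) fell, against 5.48% higher and 5.43% lower among all genes tested. The median log2 fold change was 0.17. When single libraries were left out, 1 to 5 of these genes were called in all. Fech itself carries such a cluster in mammals. The risers were Hscb, a co-chaperone of cluster transfer, the late assembly proteins Isca1 and Isca2, and Glrx5, a cluster carrier, with log2 fold changes of 0.70, 0.65, 0.47 and 0.52. Isca2 was named after its values were seen. Hscb had 99.8, 83.3 and 71.7 FPKM in the libraries labelled KO, against 48.8, 53.9 and 51.8 FPKM in those labelled WT, and was called in all 15 alternative settings (limma adjusted p 0.0105). The iron importer Slc25a37 (mitoferrin-1), known in erythroid cells, was low in all libraries, at 1.38, 1.32 and 0.765 FPKM in those labelled KO and 1.97, 2.38 and 1.67 FPKM in those labelled WT, and did not pass.

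The calls of Isca1, Glrx5 and Isca2 depended on single libraries. Isca1 was lost without WT replicate 1 or 3 and with KO 2 alone, at limma adjusted p-values up to 0.0728. Glrx5 and Isca2 were lost without KO replicate 1 or 2 and without any of the WT replicates, among other settings, at limma adjusted p-values up to 0.137 and 0.135.

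Of 10 tested genes for porphyrin and haem transport, 3 rose and none fell, against 5.48% higher and 5.43% lower among all genes tested. The median log2 fold change was 0.24. When single libraries were left out, 0 to 2 were called. Hebp1, a cytosolic haem-binding protein, had 11.4, 3.55 and 12.9 FPKM in the libraries labelled KO, against 1.51, 1.77 and 1.81 FPKM in those labelled WT. Unlike the enzymes, it was lowest of the 3 in KO 2, and it was lost with KO 2 alone, without KO replicate 1 and without any of the WT replicates, at limma adjusted p-values up to 0.109 (0.0175 with all libraries). Slc48a1, which moves haem out of lysosomes, and Abcg2, an exporter of porphyrins, had log2 fold changes of 0.36 and 0.41, with limma adjusted p-values of 0.0372 and 0.0456. Slc48a1 was lost without KO replicate 1 or 2 or any of the WT replicates, and Abcg2 when any single library was left out, at limma adjusted p-values up to 0.151 and 0.181.

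Of 17 tested regulators of the pathway, 5 (29.4%) rose and none fell, against 5.48% higher and 5.43% lower among all genes tested. The median log2 fold change was 0.16. In 8 of the 15 alternative settings only 2 or 3 regulators were called. Klf1, the erythroid Krüppel-like factor, had 57.9, 135 and 70.0 FPKM in the libraries labelled KO, against 16.6, 17.9 and 24.2 FPKM in those labelled WT, a log2 fold change of 2.03 ± 0.28 (SE; limma adjusted p 0.0031). Gata1 had 30.8, 48.7 and 23.8 FPKM in the libraries labelled KO, against 11.6, 13.2 and 13.9 FPKM in those labelled WT, a log2 fold change of 1.29 ± 0.22 (SE; limma adjusted p 0.00841). Both were called in all 15 alternative settings, and in both KO 2 was the highest library labelled KO, as for the enzymes. Tal1, a partner of GATA1, and Nfe2, a factor of erythroid and megakaryocyte cells, rose by 0.51 and 0.43 on the log2 scale. Clpp, the protease subunit that works with the ALAS-regulating unfoldase CLPX, rose by 0.45. Nfe2 was named after its values were seen. Among the settings that ended these calls, Clpp was lost without KO replicate 2 or any of the WT replicates, Tal1 without KO replicate 1 or 2 or any of the WT replicates, and Nfe2 without KO replicate 1 or any of the WT replicates, at limma adjusted p-values up to 0.0829, 0.109 and 0.153. With KO 2 alone, Tal1 and Nfe2 were lost as well, at limma adjusted p-values of 0.0868 and 0.132. Hmox1, which breaks haem down, had 2.12, 1.27 and 2.05 FPKM in the libraries labelled KO, against 0.519, 1.03 and 0.667 FPKM in those labelled WT, and did not pass (limma adjusted p 0.0923).

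Over all 49 genes tested as partners, 14 (28.6%) rose and 1 (2.04%) fell, against 5.48% higher and 5.43% lower among all genes tested. The median log2 fold change of the partners was 0.16. Calls held in all 15 alternative settings for 4 of these 15 genes, among them Hscb, Klf1 and Gata1. Without KO 2, 7 partners rose and 1 fell, against 457 higher and 453 lower among the 11348 genes tested in that setting.

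Markers of the red cell lineage were also higher in the libraries labelled KO. Of 13 tested erythroid markers, 9 (69.2%) rose and none fell, against 5.48% higher and 5.43% lower among all genes tested. The median log2 fold change was 0.89, and 6 of the 9 were called in every alternative setting that tested them. Rhag and Rhd, members of the Rhesus complex, had log2 fold changes of 2.34 and 2.22 (limma adjusted p 0.000253 and 0.00109). The membrane glycoprotein gene Gypc and the erythropoietin receptor gene Epor had log2 fold changes of 0.75 and 1.88 (limma adjusted p 0.00186 and 0.00393). The sum over the 18 listed markers was 1751 to 2809 FPKM in the libraries labelled KO, with KO 2 highest, and 1145 to 1263 FPKM in those labelled WT. Most of it in every library was the carbonic anhydrase genes Car2 and Car1, so it says little of the other markers. Car2 had 1287 to 1721 FPKM in the libraries labelled KO and 920 to 976 FPKM in those labelled WT. Car1 had 269 to 820 FPKM, with KO 2 far above the rest, and 106 to 188 FPKM. None of the 18 was at 0 in all libraries, but the defining membrane skeleton genes Slc4a1, Sptb and Ank1 stood at no more than 1.39 FPKM in any library. The transferrin receptor gene Tfrc, the entry of iron into erythroid cells, had 5.89, 9.76 and 6.88 FPKM in the libraries labelled KO, against 8.00, 10.9 and 9.16 FPKM in those labelled WT, and did not pass. The part of the erythroid markers in the enzymes' levels was not tested.

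Of the globin genes, whose proteins carry the haem of red cells, 4 were tested and none passed in limma (3 had an unadjusted p under 0.05), a count that depends on the processing. Hba-a1 had 322, 476 and 253 FPKM in the libraries labelled KO, against 233, 133 and 208 FPKM in those labelled WT, with a log2 fold change of 0.86 and a limma adjusted p of 0.0578. The 4 tested globins had a median log2 fold change of 0.80. The summed globin level was 975 to 1823 FPKM in the libraries labelled KO and 508 to 944 FPKM in those labelled WT, with KO 2 again highest. All 4 passed without KO replicate 3, 2 passed with a mean of at least 5 FPKM, by quantile normalization or by voom, and 1 passed with KO 2 alone.

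**Figure D5:**
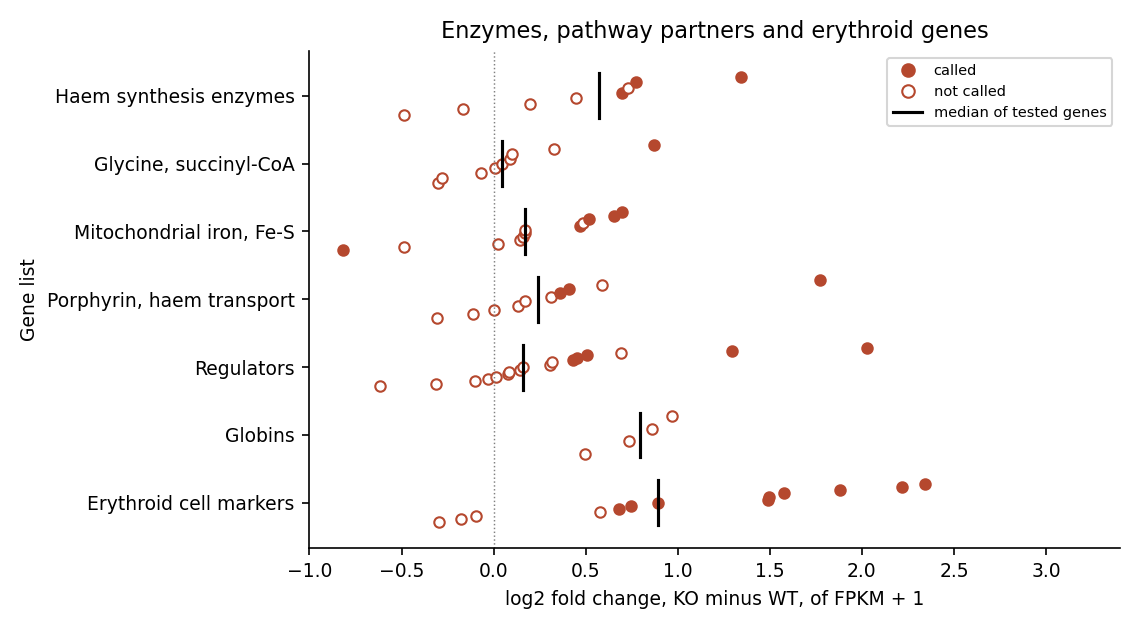
Log2 fold change of FPKM + 1, KO minus WT, of each tested gene of the haem synthesis list, its partner lists, the globins and the erythroid markers, filled where the adjusted p was under 0.05 and with a black line at each list's median. The medians of the enzymes (0.57), globins (0.80) and erythroid markers (0.89) lie to the right of those of the partner lists (0.04 to 0.24).

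Markers of other cells in or near the sort gate were read the same way. Of the 7 LSK markers, Kit and Ly6a, the genes of the sorted proteins, did not pass, while Slamf1 rose and Flt3 and Cd34 fell, in all 15 alternative settings too. With all libraries, 3 of the 7 markers rose and 2 fell, against 5.48% higher and 5.43% lower among all genes tested. The same shares apply to the counts below that use all libraries. Procr, named after its values were seen, also rose, but not without KO replicate 2 or any of the WT replicates, at limma adjusted p-values up to 0.0988. The summed LSK markers were at 978 to 1110 FPKM in the libraries labelled KO and 1132 to 1256 FPKM in those labelled WT. Cd34 carries that direction: without it the sum was 612 to 682 FPKM in the libraries labelled KO and 474 to 581 FPKM in those labelled WT. Of 10 cell cycle genes, 5 (50.0%) fell and none rose. Without KO 2, 7 of the 10 were lower, against 453 of the 11348 genes tested in that setting. Uhrf1 and Top2a kept the call in all 15 alternative settings. Mcm5, Mki67 and Cdk1, the last named after its values were seen, were lost in 6 to 8 settings each, without WT replicate 2 or 3 and with KO 2 alone among them, at limma adjusted p-values up to 0.163. Of 5 tested mast cell markers, the protease genes Cma1 and Tpsb2 rose, and of 5 tested T, B and myeloid markers none passed, with 1 called lower with KO 2 alone. The 9 plasma cell markers summed to 3658, 189 and 1641 FPKM in KO 1, 2 and 3 and to 396 to 407 FPKM in the libraries labelled WT, and none of the 7 tested passed. Of those 7, 2 were called higher without KO 2 and 1 was called lower with KO 2 alone. The low sum of KO 2 rests mostly on Ighm, which B cells also express, at 105 FPKM there and 287 to 310 FPKM in the libraries labelled WT. KO 2 lay above every library labelled WT for Igkc, Mzb1 and Igha, genes named after their values were seen. It lay below every library labelled WT for Ighm, for Sdc1 (9.42 against 12.6 to 16.5 FPKM) and for Xbp1 (64.2 against 80.0 to 88.2 FPKM). For Igj, Prdm1 and Tnfrsf17 it was within the range of the libraries labelled WT. The part of these markers in the enzymes' levels was not tested.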

How the data were processed

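The authors deposited FPKM values for 6 libraries made with kits that do not mark strand, per the labels' protocols. Build mm10 and the tools DESeq2 1.18.1, HTSeq 0.6.1, TopHat2 2.1.1 and bcl2fastq 2.19.1.403 are listed, with no role, in the submitters' processing notes; their annotation is not given in these sources. Whole reads were recovered for 99.9948% of 19373 genes above 0 from ratios between libraries and exon lengths in GENCODE M21 (relative tolerance 1e-05), so 1 read in a gene of 2000 bases stood for 0.0693 to 0.0921 FPKM. All listed genes were fitted in limma 3.58.1 (R 4.3.3) by lmFit and eBayes with a trend on log2(FPKM + 1), which understates the change of low genes, where the mean was at least 1 FPKM. The two-sided p-values of 11371 genes received Benjamini-Hochberg adjustment. Data were prepared and plotted with Python 3.11.15.

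The members and all lists were chosen with earlier results of these data known. Named genes are the members, up to 4 called genes of each list by smallest p, the 5 genes nearest each synthase in profile, and genes used to check libraries. Lists were matched by exact or older symbol. A few genes that this rule names are not reported here. Other exceptions are marked, and listed genes that did not pass were named after their values were seen. The 15 alternative settings changed the pseudocount, filter, scaling, test, variance trend or block, or left out libraries.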

Additional observations from a re-analysis of the deposited data

How the results depend on the processing

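Alad and Fech were called in all 15 alternative settings. Called enzymes numbered 3 with all libraries, 2 to 4 when single libraries were left out, 4 with KO 2 alone, 4 by voom, 2 with no filter and 2 with no mean-variance trend. Among all genes, 1240 calls became 588 with no filter on low values, 826 with KO 2 alone (without KO replicates 1 and 3, the lone library assumed to vary like those labelled WT) and 376 to 1669 when single libraries were left out. Among the partners, 15 calls became 7 with no filter, 8 with KO 2 alone, 9 with no mean-variance trend and 4 to 14 when single libraries were left out. The Alas2 to Alas1 difference was 1.40 with KO 2 alone, and Ppox reversed to 0.18 there. The cause was not tested.

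Replicate numbers were not shown to pair libraries: deviations of same-numbered libraries had correlations across genes of -0.031, 0.045 and -0.116. With the replicate number as a block, 805 genes, 7 partners and 3 enzymes were called. Depth limits Ppox, Uros and Alas2 most, at 85 to 391 reads each.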
